A study of Mus musculus with 6 samples.

Results

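UDP-glucuronosyltransferases (UGTs) were measured by RNA-seq in the liver of mice fed chow with or without microplastic. The genes described are the 10 rows of the deposited count table named Ugt1a1, Ugt1a6a, Ugt1a9, Ugt2a3, Ugt2b1, Ugt2b5, Ugt2b34, Ugt2b35, Ugt2b36 and Ugt3a1, out of 56674 rows in all. They were chosen by name, as 3 genes of the UGT1A family, 6 of the UGT2 family and 1 of the UGT3 family. Another 12 rows of the table carry UGT names and are used for comparison. All mice were C57BL/6 males reared for 71 weeks. The control group (3 libraries) ate normal chow, and the PB-MP group (3 libraries) ate chow with polypropylene black microplastic. The labels give no dose or particle size, and they do not say that each library came from a separate animal, so p-values measure only the spread between these libraries, which may be technical.

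UGTs sit in the membrane of the endoplasmic reticulum and move glucuronic acid from UDP-glucuronate onto bilirubin, bile acids, steroids, fatty acids and drugs. The glucuronides formed are water-soluble and leave the hepatocyte through export pumps into bile or blood. The liver carries much of the body's glucuronidation, and its UGT genes are known targets of receptors that sense foreign compounds, among them AHR, CAR, PXR and PPAR-alpha, and of the stress factor NRF2.

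Gene structure bears on how these rows can be read. The Ugt1a genes form one cluster on chromosome 1 in which each transcript has its own first exon and all share the exons that follow. In the GENCODE M21 transcripts (GRCm38), the coding sequences of all 9 Ugt1a rows ended in the same 737 bases, which is 45.9% of the 1605 coding bases of Ugt1a1. The 60 coding bases around that boundary are shown because beyond it the coding sequence can no longer tell any of the 9 rows apart. Capitals are the start of the stretch common to all 9 rows, which takes in the last 2 bases of each first exon, and lower-case letters are the first-exon bases before it.
Ugt1a1: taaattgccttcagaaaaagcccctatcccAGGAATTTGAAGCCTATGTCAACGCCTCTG
Ugt1a6a: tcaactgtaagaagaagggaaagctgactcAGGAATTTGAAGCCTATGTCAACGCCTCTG
Ugt1a6b: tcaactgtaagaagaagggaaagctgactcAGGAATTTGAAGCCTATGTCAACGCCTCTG
Ugt1a9: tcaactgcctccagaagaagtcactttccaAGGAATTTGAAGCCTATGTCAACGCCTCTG
The Ugt1a6a and Ugt1a6b lines are the same over all 60 bases, and their coding first exons were 97.0% identical. The first exon of Ugt1a9 was closest to that of Ugt1a10, at 91.2%, while those of Ugt1a1 and Ugt1a6a were 59.9% identical.

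Of all 100-base windows along a transcript, the share found in no other gene was 42.8% for Ugt1a1, 41.5% for Ugt1a9 and 28.6% for Ugt1a6a. Outside the Ugt1a cluster it was 75.3% for Ugt2b5, whose closest relative Ugt2b38 was 97.0% identical over the coding sequence, and at least 99.4% for the other 6 genes. Levels of Ugt1a1, Ugt1a6a, Ugt1a9 and Ugt2b5 are therefore uncertain, since the way the authors counted shared reads is not given in the sources used here. Reads of the common exons had not been added to every Ugt1a row, because in PB-MP replicate 1 the Ugt1a8 row held 108 reads and the Ugt1a1 row 48398.

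The libraries held from 68357478 to 112566641 reads, and every one of the 10 genes had at least 291 reads in each library. Levels are CPM, reads relative to the library total, after TMM scaling, which corrects for a difference in RNA composition between libraries. The 13 mRNAs of the mitochondrial genome took from 14.2% to 15.1% of control reads and from 8.73% to 10.1% of PB-MP reads. The row of 18S ribosomal RNA varied within both groups, from 1.15% to 11.2% of control reads and from 0.707% to 9.42% of PB-MP reads. The part of these rows in the results below was not tested, apart from the fits under other scalings and without ribosomal and mitochondrial rows. Markers of hepatocytes overlapped between groups, with a summed level of 67331 to 81540 CPM in control and 72514 to 80575 CPM in PB-MP. UGT genes are also active in kidney and intestine. Of 5 kidney markers 4 were at 0 in all libraries, with a sum of at most 0.0380 CPM, and the intestinal markers Vil1, Muc2, Cdx1 and Cdx2 summed to at most 0.231 CPM. With Fabp2, the remaining intestinal marker, the list summed to 53.4 to 96.4 CPM in control and 36.3 to 125 CPM in PB-MP. In tissue RNA, fewer cells of a type and less RNA per cell cannot be told apart.

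None of the 10 UGT genes passed the test for a difference between diets. By the quasi-likelihood test of edgeR, 0 of 10 had an adjusted p below 0.05 over all 17871 genes tested, 0 of 10 had an unadjusted p below 0.05, and DESeq2 and limma-voom also called 0 of 10. The same edgeR fit called 0 genes in the whole table (0.0%), with 2161 genes (12.1%) at an unadjusted p below 0.05, while DESeq2 called 540 (3.03%, of which 2.04% of genes tested higher and 0.988% lower) and limma-voom 0. Control and PB-MP libraries overlapped for every one of the 10, whereas they did not overlap for 3547 of the genes tested (19.8%). For 8 of the 10, the 95% interval excluded a difference of 2-fold or more either way, which held for 45.7% of all genes tested. That wider set was not matched to the 10 for level and includes genes below 1 CPM, whose intervals can be wide. The exceptions were Ugt1a9 and Ugt2b35. The estimate was below 0 for 9 of 10 (49.4% of all genes), with a median of -0.12 beside 0.01 for all genes. Among the 9, Ugt1a1 stood at -0.0003, Ugt2b36 at -0.04 and Ugt1a6a at -0.06. Leaving out control replicate 2 or PB-MP replicate 1 gave 6 of 10 below 0, and leaving out control replicate 1 gave 9. With library size alone as scaling, 3 of 10 estimates were below 0, but the median of all genes then stood at 0.23, and 9 of 10 lay below that median.

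**Figure D1:**
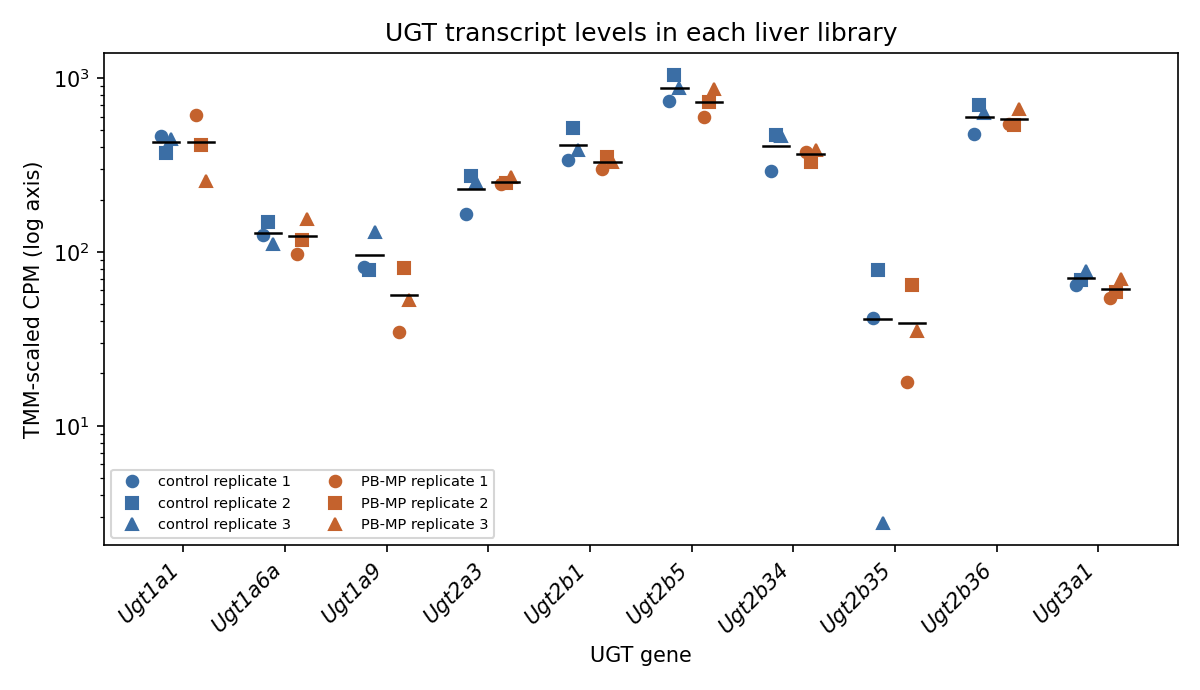
Level of each UGT gene in each library, as TMM-scaled CPM on a log axis; circles, squares and triangles are replicates 1, 2 and 3, blue is control, orange is PB-MP, and bars are group means (n = 3). The groups overlap for all 10 genes, and Ugt2b35 in control replicate 3 stands far below its other values at 2.77 CPM.

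Ugt1a1 is the enzyme that conjugates bilirubin, the breakdown product of haem. Its level was 463, 371 and 448 CPM in the control libraries and 614, 413 and 256 CPM in the PB-MP libraries. The highest and the lowest of the 6 values were both in PB-MP, on either side of the controls. Group means were 428 ± 49.3 and 427 ± 179 CPM (SD, n = 3 each), and the 95% interval of the log2 fold change of PB-MP over control ran from -0.73 to 0.73 (edgeR adjusted p 0.9999). The coefficient of variation was 11.5% in control and 41.9% in PB-MP, a difference in spread that was not tested.

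Ugt1a6a belongs to the enzymes that conjugate small planar phenols. It stood at 125, 148 and 111 CPM in control and 97.9, 117 and 155 CPM in PB-MP, with the lowest and the highest library again both in PB-MP. The log2 fold change was -0.06 ± 0.21 (SE, edgeR adjusted p 0.937). Its near-copy Ugt1a6b, measured at 117, 94.2 and 117 CPM in control and 135, 112 and 71.6 CPM in PB-MP, was high where Ugt1a6a was low within the PB-MP group. Summed over both rows, the level was 242, 243 and 229 CPM in control and 233, 229 and 227 CPM in PB-MP. The sum thus varied far less between libraries than either row: Ugt1a6a alone spanned 1.59-fold and Ugt1a6b 1.88-fold. Whether reads were divided unevenly between these copies was not tested. Group means of the sum were 238 ± 7.86 and 229 ± 3.06 CPM (SD, n = 3 each, exact permutation p 0.3, two-sided, smallest possible 0.1). As a share of all reads without TMM scaling, the sum was 0.0214% to 0.0232% for control and 0.0239% to 0.0260% for PB-MP, higher in 3 of 3 PB-MP libraries (exact p 0.1), so that its direction depended on the scaling.

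**Figure D2:**
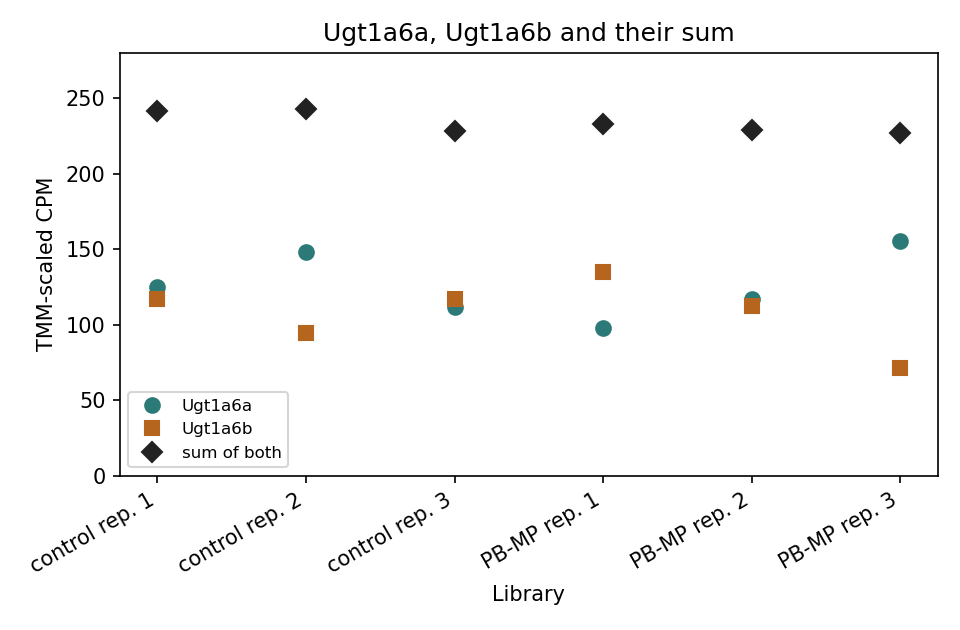
TMM-scaled CPM of Ugt1a6a (circles), Ugt1a6b (squares) and their sum (diamonds) in each of the 6 libraries. The sum stays between 227 and 243 CPM while Ugt1a6a runs from 97.9 to 155 CPM and Ugt1a6b from 71.6 to 135 CPM.

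Ugt1a9, a phenol-conjugating enzyme of the cluster, had the largest estimate among the 10. It was read at 81.8, 78.2 and 129 CPM in control and 34.6, 81.2 and 52.7 CPM in PB-MP. PB-MP replicates 1 and 3 lay below all controls, but replicate 2 lay among them. The log2 fold change was -0.78 ± 0.34 (95% interval -1.59 to 0.03, edgeR unadjusted p 0.0569, adjusted p 0.427). Unadjusted, DESeq2 gave 0.0353 and limma-voom 0.0457 for Ugt1a9, with adjusted p of 0.322 and 0.354. The edgeR estimate was -0.51 without control replicate 3, -0.53 without PB-MP replicate 1 and -1.14 without PB-MP replicate 2, and none of these passed adjustment.

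The UGT2 enzymes act mainly on steroids, bile acids and drugs. Ugt2b5 was the most abundant UGT row, at 735, 1036 and 873 CPM in control and 593, 730 and 860 CPM in PB-MP. PB-MP replicates 1 and 2 were below all controls and replicate 3 was not, and the log2 fold change was -0.28 ± 0.22 (edgeR adjusted p 0.644). Added to its relative Ugt2b38, the level was 968 ± 167 CPM in control and 787 ± 130 CPM in PB-MP (exact permutation p 0.2). Ugt2b36, the next in level, was at 474, 700 and 628 CPM in control and 546, 539 and 664 CPM in PB-MP, with a log2 fold change of -0.04 ± 0.20 (edgeR adjusted p 0.950). All PB-MP values of Ugt2b36 fell inside the control range.

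Ugt2b1 was measured at 340, 513 and 388 CPM in control and 301, 352 and 328 CPM in PB-MP. Control replicate 1 lay among the PB-MP libraries and the other controls above them, giving a log2 fold change of -0.34 ± 0.20 (edgeR adjusted p 0.525). Ugt2b34 stood at 290, 471 and 464 CPM in control and 377, 329 and 384 CPM in PB-MP, with a log2 fold change of -0.17 ± 0.22 (edgeR adjusted p 0.798). Here control replicate 1 was the lowest of all libraries. The same library was also the lowest for Ugt2a3 and Ugt2b36, and for no other of the 10 genes.

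Ugt2a3, whose human counterpart conjugates bile acids, was the only one of the 10 with an estimate above 0. Its level was 164, 272 and 253 CPM in control and 245, 249 and 268 CPM in PB-MP, all 3 PB-MP values falling inside the control range. The log2 fold change was 0.14 ± 0.21 (edgeR adjusted p 0.823), and without control replicate 1 it was -0.05. The PB-MP libraries lay close together, with a coefficient of variation of 4.87% against 25.0% in control.

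Ugt2b35 was the least abundant and the most variable of the 10. It was found at 41.6, 78.7 and 2.77 CPM in control (3035, 4769 and 291 reads) and at 17.9, 64.6 and 34.9 CPM in PB-MP. Control replicate 3, the deepest library, was 28.4-fold below control replicate 2, and all PB-MP values lay between these. For comparison, the ratio of the highest to the lowest library had a median of 1.68 over the 10 genes and of 1.67 over the 6681 genes that averaged 10 CPM or more. The log2 fold change of -0.07 ± 0.98 (95% interval -2.37 to 2.24, edgeR adjusted p 0.983) has a wide interval, and with limma-voom it was 0.79. The Ugt2b35 transcript shared no window of 100 bases with another gene.

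Ugt3a1, whose human counterpart transfers N-acetylglucosamine in place of glucuronic acid, varied least between libraries, with a ratio of highest to lowest of 1.44. Its level was 64.9, 69.0 and 77.7 CPM in control and 53.9, 59.0 and 69.5 CPM in PB-MP. PB-MP replicates 1 and 2 lay below all controls and replicate 3 between control replicates 2 and 3. With a log2 fold change of -0.21 ± 0.16 (edgeR adjusted p 0.625) it had the smallest SE of the 10.

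**Figure D3:**
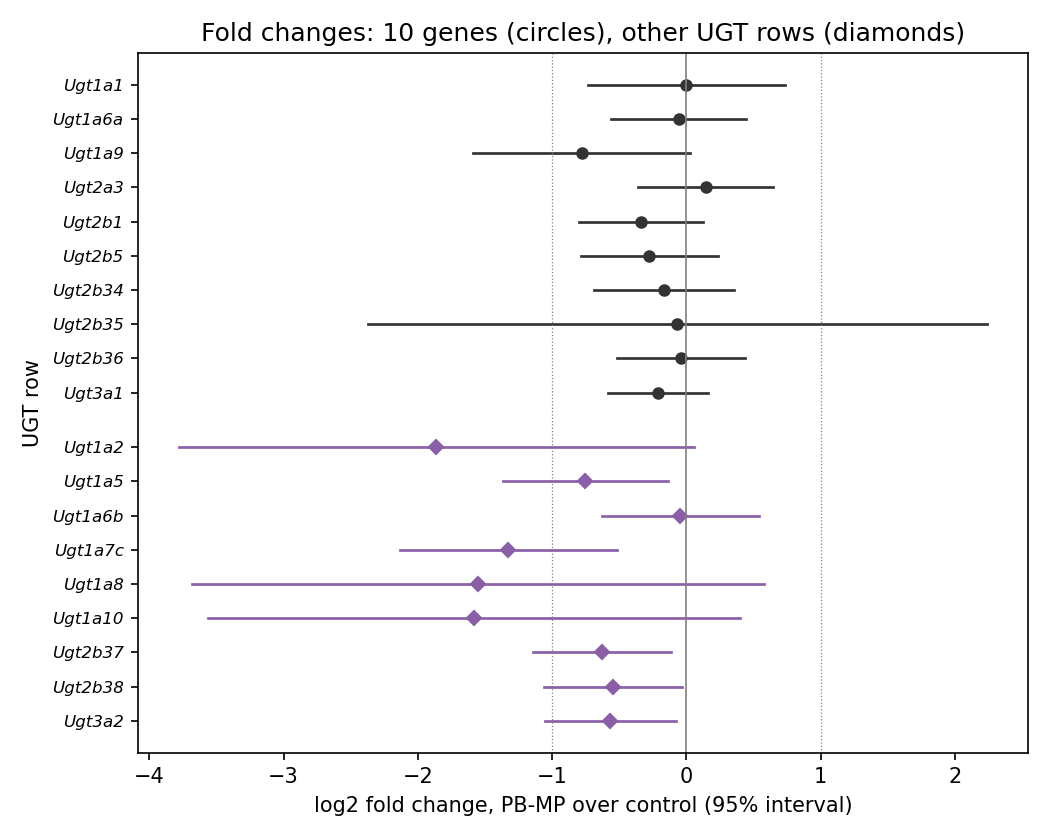
Log2 fold change of PB-MP over control with its 95% interval from edgeR, for the 10 UGT genes described (circles) and the 9 other UGT rows tested (diamonds); dotted lines mark a 2-fold difference. Intervals of the 10 genes all include 0, and the estimates of the other rows all lie below 0, from -1.86 to -0.04.

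Between genes, levels can be set side by side only per length of transcript. In CPM per kb, averaged over the 6 libraries, the order was Ugt2b5 (433), Ugt2b36 (313), Ugt1a1 (192), Ugt2b1 (144), Ugt2b34 (126), Ugt2a3 (114), Ugt1a6a (54.7), Ugt1a9 (34.8), Ugt3a1 (29.3) and Ugt2b35 (11.9). The lengths are those of the GENCODE M21 transcripts, and the length over which the authors counted a Ugt1a row is unknown. Neighbours in this order overlapped between libraries, except that Ugt2a3 was above Ugt1a6a and Ugt3a1 above Ugt2b35 in all 6 libraries without overlap. Within a library, Ugt2b5 was above Ugt2b36 and Ugt2b36 above Ugt1a1 in 6 of 6. By contrast, Ugt1a1 exceeded Ugt2b1, Ugt2b1 exceeded Ugt2b34 and Ugt2b34 exceeded Ugt2a3 in 4 of 6 each.

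The summed level of the 10 genes was 2780, 3738 and 3375 CPM in control and 2881, 2933 and 3072 CPM in PB-MP. The PB-MP libraries lay close together and inside the control range. Means were 3297 ± 484 and 2962 ± 99.1 CPM (SD, n = 3 each), a log2 ratio of -0.15 (exact permutation p 0.4). That ratio was -0.26 without control replicate 1 and -0.06 without control replicate 2. Taken straight from the reads, without scaling, the 10 genes made up 0.267%, 0.331% and 0.315% of control reads and 0.322%, 0.306% and 0.331% of PB-MP reads (exact permutation p 0.7). The UGT1A members summed to 652 ± 47.8 and 607 ± 141 CPM (exact permutation p 0.7), and the UGT2 members to 2575 ± 514 and 2294 ± 231 CPM (exact permutation p 0.5).

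The mix of the 10 genes does not depend on scaling. Ugt2b5 took 26.7% ± 0.947 of their reads in control and 24.5% ± 3.71 in PB-MP, and Ugt2b36 took 18.1% ± 0.929 and 19.6% ± 1.73 (SD, n = 3 each). Ugt2a3 was the only gene whose shares did not overlap, with 5.91%, 7.27% and 7.51% in control and 8.49%, 8.50% and 8.72% in PB-MP. That difference was 1.67 percentage points, with an exact permutation p of 0.1, the smallest that 3 against 3 allows, and 0.667 after adjustment over the 10 genes. Ugt1a1 ranged most, from 8.34% in PB-MP replicate 3 to 21.3% in PB-MP replicate 1.

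The other UGT rows were read in the same fit. Of the 12, Ugt2a1 and Ugt2a2 had 0 reads in every library and Ugt8a at most 7, so 9 were tested. All 9 estimates were below 0 (49.4% of all genes), with a median of -0.75. An unadjusted edgeR p below 0.05 was reached by 5 (Ugt1a5, Ugt1a7c, Ugt2b37, Ugt2b38 and Ugt3a2), against 4.74% of all genes in that direction. PB-MP lay below control without overlap for 6 of the 9 (8.49% of all genes). None was called by edgeR. Under library size alone the estimate of Ugt1a6b was above 0, at 0.17. Whether these rows differ from the 10 genes was not tested.

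Ugt1a7c had the smallest p of these rows. It was measured at 157, 86.0 and 198 CPM in control and 41.3, 72.0 and 62.6 CPM in PB-MP, so that every PB-MP library was below every control. The log2 fold change was -1.32 ± 0.34, with an adjusted p of 0.249 in edgeR and 0.0178 in DESeq2, the only UGT call by either tool. Ugt1a8 and Ugt1a10 were both near 0 in the same library. In control Ugt1a8 stood at 48.0, 41.6 and 67.7 CPM and Ugt1a10 at 56.3, 41.4 and 72.4 CPM. In PB-MP replicate 1 they were at 1.37 and 1.79 CPM, where Ugt1a1 was at its highest, while PB-MP replicates 2 and 3 held 34.9 and 17.4 CPM of Ugt1a8 and 31.9 and 23.0 CPM of Ugt1a10. The ratio of Ugt1a10 to Ugt1a8 reads stayed between 0.916 and 1.32 in all 6 libraries. Ugt1a2 was at 197, 21.1 and 63.4 CPM in control and 10.8, 40.8 and 25.9 CPM in PB-MP, with control replicate 1 far above the rest.

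Ugt1a5 had a log2 fold change of -0.75 ± 0.26, Ugt2b37 of -0.63 ± 0.22, Ugt2b38 of -0.55 ± 0.22, Ugt3a2 of -0.57 ± 0.21 and Ugt1a6b of -0.04 ± 0.25. Over all 9 Ugt1a rows the sum was 1224 ± 212 CPM in control and 901 ± 165 CPM in PB-MP (exact permutation p 0.2), and over the 6 Ugt1a rows outside the 10 genes it was 671, 382 and 664 CPM against 275, 358 and 250 CPM (exact permutation p 0.1). Every PB-MP value of the latter sum was below control, but as a share of all reads the groups overlapped (exact permutation p 0.2). The sum over all 22 UGT rows was 4103 ± 382 and 3415 ± 86.3 CPM without overlap (exact permutation p 0.1), and as a share of reads it was 0.380% and 0.368% with overlap (exact permutation p 0.5).

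Within the Ugt1a cluster, Ugt1a1 took 34.6%, 37.9% and 33.1% of reads in control and 60.1%, 42.6% and 35.9% in PB-MP. PB-MP replicate 1 stood apart and replicate 3 fell among the controls (exact permutation p 0.2, 0.3 adjusted over the 9 rows). Ugt1a7c took 11.7% ± 2.92 of control and 6.75% ± 2.44 of PB-MP cluster reads (SD, n = 3 each), with overlap absent by a narrow margin, from 8.78% to 8.77% (exact permutation p 0.1, adjusted 0.3). Shares of 2 other rows did not overlap either, with the same p: Ugt1a6b was higher, at 8.66% to 9.61% for control and 10.03% to 13.2% for PB-MP, and Ugt1a10 was lower, at 4.59% ± 0.658 for control and 2.23% ± 1.78 for PB-MP (SD, n = 3 each). For comparison, levels did not overlap for 19.8% of all genes tested. The shares of a library add to a fixed total, so they do not move independently. The level of Ugt1a6b itself overlapped, at 109 ± 13.2 CPM in control and 106 ± 32.1 CPM in PB-MP.

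**Figure D4:**
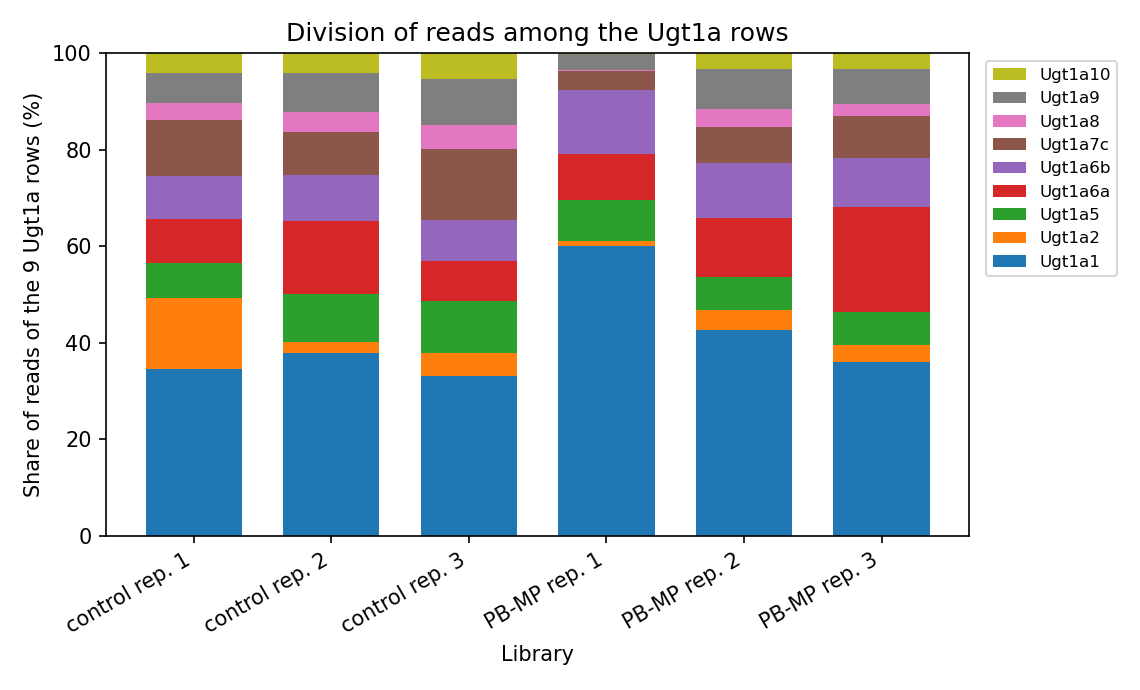
Share of each Ugt1a row in the reads of the 9 Ugt1a rows, in percent, one bar per library with the rows stacked in the order of the genes along chromosome 1 (RefSeq, GRCm38.p6). Ugt1a1, at the bottom, takes 60.1% in PB-MP replicate 1 and 33.1% to 42.6% elsewhere, and Ugt1a8 and Ugt1a10 are nearly absent in PB-MP replicate 1.

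Of the regulators of UGT genes, 17 of 17 were tested and edgeR called none, with 4 at an unadjusted p below 0.05 upward (7.35% of all genes), 1 downward (4.74% of all genes) and a median log2 fold change of 0.18. Nfe2l2, the gene of NRF2, had a log2 fold change of 0.55 ± 0.20 (edgeR adjusted p 0.361), and its PB-MP libraries lay above all controls. Foxa1, a pioneer factor of liver genes, stood at 0.494, 0.264 and 0.827 CPM in control and 0.951, 1.005 and 12.4 CPM in PB-MP, with PB-MP replicate 3 far above the rest.

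Nr1i3, the gene of CAR, varied widely among the controls. It was at 229, 20.6 and 7.35 CPM in control and 141, 106 and 119 CPM in PB-MP. The controls thus spanned 31.2-fold on both sides of the PB-MP libraries, and the log2 fold change of 0.51 ± 1.08 has an interval from -2.02 to 3.05. Nr1i2, the gene of PXR, was at 86.5, 60.8 and 63.1 CPM in control and 58.3, 57.3 and 58.4 CPM in PB-MP, lower in 3 of 3 by a small margin (log2 fold change -0.27 ± 0.18, edgeR adjusted p 0.567). Ahr had a log2 fold change of 0.29 ± 0.22 and Hnf4a of -0.16 ± 0.22, both with overlap.

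Targets of these receptors were counted in the same fit, and edgeR called none of them. Of 11 CAR and PXR targets 2 had an unadjusted p below 0.05, both downward (4.74% of all genes), with a median of -0.17. Cyp2c29, a drug-oxidising P450, was at 1528 ± 173 CPM in control and 988 ± 99.2 CPM in PB-MP (log2 fold change -0.63 ± 0.18), Cyp2b10 at 6.97 ± 3.52 and 2.95 ± 1.24 CPM, and Cyp3a11 at 4821 ± 692 and 4681 ± 1144 CPM (SD, n = 3 each). AHR targets numbered 5 tested of 6 with 1 downward at that p and a median of -0.53, Cyp1a2 having a log2 fold change of -0.32 ± 0.25 and Nqo1 of -0.53 ± 0.33. PPAR-alpha targets, 10 of 10 tested, had 1 downward and a median of -0.19, with Vnn1 at -0.55 ± 0.21.

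Of 10 NRF2 targets 9 were tested, all with estimates below 0 and a median of -0.27, 2 downward at an unadjusted edgeR p below 0.05 and 4 lower without overlap. Over all genes tested these shares were 49.4% below 0, 4.74% and 8.49%. The glutathione transferase Gstm1 was at 2668, 1780 and 2663 CPM in control and 1095, 1050 and 1005 CPM in PB-MP, with a log2 fold change of -1.17 ± 0.22 (adjusted p 0.207 in edgeR and 3e-04 in DESeq2). Its relative Gstm3 had -1.27 ± 0.33 (0.250 and 0.0224). The estimate of Nfe2l2 itself lay above 0, as given before.

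Glucuronidation also needs its cosubstrate. All 6 genes of UDP-glucuronate supply had estimates below 0 (49.4% of all genes), with a median of -0.27. At an unadjusted edgeR p below 0.05, 1 was downward (4.74% of all genes), and edgeR and DESeq2 called none. Ugdh, the dehydrogenase that makes UDP-glucuronate, was at 196, 233 and 249 CPM in control and 166, 174 and 170 CPM in PB-MP. The PB-MP libraries were all lower and close together (log2 fold change -0.41 ± 0.15, edgeR adjusted p 0.362). Ugp2, which makes its precursor UDP-glucose, had -0.20 ± 0.23, and Slc35d1, which carries UDP-glucuronate into the endoplasmic reticulum, -0.33 ± 0.24. The summed level of the 6 genes was 889 to 977 CPM in control and 744 to 786 CPM in PB-MP.

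On the route that frees and reuses glucuronate, 10 of 11 genes were tested, all 10 with estimates below 0 (49.4% of all genes) and a median of -0.18. At an unadjusted edgeR p below 0.05, 2 were downward (4.74% of all genes). These were Gusb, the lysosomal beta-glucuronidase, with 25.4 ± 2.24 CPM in control and 17.7 ± 2.78 CPM in PB-MP (log2 fold change -0.52 ± 0.18), and Xylb, a kinase of the same route, with -0.77 ± 0.25. Neither passed adjustment (edgeR adjusted p 0.346 and 0.327).

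For bilirubin, the substrate of Ugt1a1, 4 of 4 genes of its formation were tested with a median of -0.22. Hmox1, the haem oxygenase that opens the haem ring, was at 12.0, 10.9 and 12.3 CPM in control and 14.1, 15.1 and 23.1 CPM in PB-MP, higher in 3 of 3 (log2 fold change 0.57 ± 0.24, edgeR adjusted p 0.404). Blvrb, a biliverdin reductase, had -0.44 ± 0.30.

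Among 8 genes of glucuronide transport the median was -0.28, with 2 downward at an unadjusted edgeR p below 0.05 (4.74% of all genes). Abcc2, the pump for bilirubin glucuronides into bile, was at 415, 426 and 393 CPM in control and 580, 498 and 368 CPM in PB-MP, again with a highest and a lowest library in PB-MP. Its log2 fold change was 0.23 ± 0.20 (edgeR adjusted p 0.683). Abcc3, an exporter towards blood, had -0.60 ± 0.30 and Abcg2, a further canalicular pump, -0.62 ± 0.18. Abcc4, at 4.66 ± 2.54 CPM in control and 1.72 ± 0.452 CPM in PB-MP (SD, n = 3 each), was called by DESeq2 (adjusted p 0.0453) and not by edgeR (0.304).

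Sulfotransferases, which compete for many UGT substrates, were tested for 6 of 7 genes. All had estimates above 0 (9045 of all 17871 genes tested), with a median of 0.52 and none at an unadjusted edgeR p below 0.05 (12.1% of all genes). Sult1b1 had 0.58 ± 0.25 and Sult1a1 0.45 ± 0.24. The 9 oxidation partners in the endoplasmic reticulum had a median of -0.35 with 2 downward at that p (4.74% of all genes). These were Ephx1, the microsomal epoxide hydrolase (-0.69 ± 0.19), and Cyb5r3 (-0.60 ± 0.24). Levels of some mouse liver UGTs depend on sex, so sex-biased liver genes were counted too. Of 10 male-biased genes 4 were downward at an unadjusted edgeR p below 0.05 (4.74% of all genes), 4 were lower without overlap (8.49% of all genes), and DESeq2 called Cyp4a12a (-1.68 ± 0.27), Cyp4a12b (-1.87 ± 0.32) and Elovl3 (-1.23 ± 0.34). The median of the 10 was -0.50, and 2 had estimates above 0, up to 0.58. Their summed levels overlapped, at 4068 to 6095 CPM in control and 2378 to 5461 CPM in PB-MP. Of 8 female-biased genes 7 were tested with a median of 0.49, Cyp2a4 having -0.82 ± 0.35 and Acot3 0.49 ± 0.22. None was upward and 1 downward at that p, namely Cyp3a41a (-1.32 ± 0.54, below 1 CPM in 5 of 6 libraries), named after its values were seen. In all, 109 genes of these pathway lists were tested, and edgeR called 0 while DESeq2 called 6, against 3.03% of all genes.

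Marker levels of other cells varied beside these values. Kupffer cell markers had estimates above 0 in 6 of 6, beside 9045 of all 17871 genes tested. Their median was 0.76, and they summed to 80.3 to 103 CPM in control and 102 to 226 CPM in PB-MP. Neutrophil markers were summed at 1.12 to 1.56 and 2.74 to 5.07 CPM, with 2 of 5 at 0 in all libraries. Stellate cell markers were summed at 283 to 297 CPM in control and 163 to 277 CPM in PB-MP, T cell markers at 3.83 to 5.59 and 2.49 to 3.36 CPM, and adipocyte markers at 2.38 to 12.3 and 0.662 to 1.44 CPM. Cfd held most of the adipocyte sum in every library, at 7.63 ± 4.98 CPM in control and 0.880 ± 0.370 CPM in PB-MP (SD, n = 3 each). Of the other adipocyte markers, Lep was at 0 in all libraries, Adipoq had at most 9 reads, Plin1 at most 5, and Retn at most 0.333 CPM. The adipocyte sum therefore mainly reads Cfd, and whether adipocyte content differed was not tested. Markers of pericentral hepatocytes, the zone in which UGT activity is often highest, had a median of -0.08 and those of periportal hepatocytes 0.21, both with overlapping sums. Cholangiocyte, endothelial, erythroid and B cell marker sums overlapped as well, with medians of -0.05, -0.02, 0.24 and -0.91. In the B cell sum, Ighm held 28.2 CPM in PB-MP replicate 1 and at most 1.12 CPM elsewhere. The B cell list's Jchain was lower without overlap, at 26.9 ± 13.8 CPM in control and 5.45 ± 3.49 CPM in PB-MP (SD, n = 3 each). Of 5 pancreatic markers 4 were at 0 in all libraries. The part of these cells in the UGT values was not tested.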

How the data were processed

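Poly(A) RNA of mouse liver was sequenced from directional libraries, per the labels' protocols. Whole-number read counts by gene symbol, not normalized, were deposited by the authors. Per the submitters' processing notes, bcl2fastq and GRCm39 were used; aligner, counter, annotation, strand setting and handling of shared reads were not given in the sources used here. Single-library files and the joint table held identical values, and 939 rows share 67 names. Groups came from the labels. Counts were filtered with filterByExpr of edgeR 4.0.16 (minimum count 10, minimum total 15), which left 17871 genes, scaled by TMM and tested with the quasi-likelihood F test in R 4.3.3, with Benjamini-Hochberg adjustment over all genes and calls at 0.05. The SE is the log2 fold change over the square root of F. DESeq2 1.42.0, limma-voom (limma 3.58.1), other scalings and filters, a replicate block and leaving out libraries were alternatives. The fit was tested on simulated data. Single values per library, such as sums and shares, were compared by two-sided exact permutation over 10 splits.

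The 10 UGT genes and the gene lists were chosen with earlier results of these data known. Named genes are the 10, all tested UGT rows, up to 2 genes of smallest p per list at a mean of at least 1 CPM, called genes, and set anchors such as Ugdh, Nr1i3 and Abcc2. Some genes that this rule takes are not reported here. Sequences came from GENCODE M21 transcripts (GRCm38), and gene order from RefSeq (GRCm38.p6). Since the deposited counts used another build, no gene coordinates are given. Replicates differed by more than sampling noise (chi-square at least 201 per degree of freedom within each group).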

Additional observations from a re-analysis of the deposited data

How the results depend on the processing

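No member was called under any of the 17 alternatives, and the smallest adjusted p of any of the 10 genes was 0.243. Over the whole table, calls went from 0 to 540 with DESeq2, stayed at 0 to 1 when single libraries were left out (1 without control replicate 1) and came to 2 with control replicate 2 and PB-MP replicate 3 both left out, an alternative added after seeing the data. DESeq2 called 6 listed pathway genes. The cause was not tested.

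Direction was less stable than the calls: 26 of 170 member estimates changed sign, in 7 of the 10 genes. Of the 26, 9 were of Ugt1a1, whose main estimate of -0.0003 gives hardly any direction to lose, and 7 were of Ugt2b35. Library size alone gave 0.22 for Ugt1a1, 0.16 for Ugt1a6a, 0.062 for Ugt2b34, 0.15 for Ugt2b35, 0.18 for Ugt2b36, 0.0052 for Ugt3a1 and 0.070 for the summed level, all log2; it also moved the median of all genes to 0.23. Ugt1a1 was 0.025 with upper quartile scaling, 0.020 without ribosomal and mitochondrial rows, 0.024 with the stricter filter and 0.16 without the library pair just named. Ugt2b35 was 0.79 with limma-voom, 0.49 with the replicate block and 0.89 without that pair. Leaving out single libraries gave -0.35 to 0.26 for Ugt1a1, -0.26 to 0.086 for Ugt1a6a, -1.14 to -0.51 for Ugt1a9, -0.054 to 0.25 for Ugt2a3, -0.64 to 0.80 for Ugt2b35, -0.19 to 0.056 for Ugt2b36 and -0.26 to -0.055 for the summed level. In the same way the share differences ran from -2.09 to 4.39 points for Ugt1a1, -0.23 to 0.60 for Ugt1a6a, -0.89 to 0.76 for Ugt2b34 and -0.48 to 0.53 for Ugt2b35; as a share of all UGT reads, Ugt3a1 differed by 0.058 points.

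Over all genes tested, deviations of same-numbered libraries from their group means were hardly correlated (r of -0.09, 0.09 and 0.08). The replicate block, which called 0 genes with 1836 at an unadjusted p below 0.05, pairs libraries by number only. The 18S ribosomal RNA row did go with that number. In replicates 1, 2 and 3 it took 2.92%, 11.2% and 1.15% of control reads and 3.61%, 9.42% and 0.707% of PB-MP reads. Whether same-numbered libraries share a batch is not labelled and was not tested. Counting error is small at this depth, and the number of libraries, 3 a group, limits the precision.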

Other observations

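The genes whose pattern over the 6 libraries lay closest to the mean pattern of the 10 UGT genes were Aqp1, a water channel, Zkscan1 and Ppp1r2. The measure was the root mean square difference of centred log2 CPM (0.01 CPM added), over 6663 genes outside the family that averaged 10 CPM or more, and came to 0.04, 0.05 and 0.09. Aqp1 stood at 41.5, 51.4 and 36.2 CPM in control and 33.1, 43.0 and 39.9 CPM in PB-MP. The mean pattern was highest in control replicate 2, at 0.35, and lowest in PB-MP replicate 1, at -0.24. Ugt2b35 weighs heavily in it, since it varied most. Of the 10 genes themselves, Ugt2b1 (0.14), Ugt1a6a (0.16) and Ugt2b5 (0.17) lay nearest to this mean and Ugt1a1 (0.50), Ugt1a9 (0.57) and Ugt2b35 (1.49) farthest. The mean includes each of these genes, so their nearness to it is partly built in. Whether the 10 moved together over these libraries was not tested.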
